A study of Lepidium sativum with 30 samples.

Results

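Described here are 200 transcript contigs of the 48306 counted in seed libraries of Lepidium sativum (garden cress). They stood highest in dry seed relative to seed imbibed without the phytotoxin Myrigalone A (MyA). The members were chosen on measured values. Reads per contig were expressed as CPM, counts divided by the library's total and multiplied by 1000000, and the group means of dry seed and of control seed at 6 h and 12 h, each with 0.5 CPM added, gave the ratios of dry seed to the 6 h control and of dry seed to the 12 h control. Contigs qualified with a dry seed mean of at least 20 CPM, unless they were among the 100 highest there or were over 4-fold higher in the fifth MyA library at 18 h than in the mean of the other 4. The condition on that library removed 412 contigs. The 6947 contigs left were ranked by the smaller of the ratios. The levels in dry seed and in control seed are therefore a description of how the members were chosen and were not tested.

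All seeds were of the FR14 line, and RNA was extracted from whole seeds, so that embryo, endosperm and testa are mixed in each library. The 6 groups of 5 poly(A) RNA libraries were dry seed (DS), seed imbibed in control solution for 6 h (C6) and 12 h (C12), and seed imbibed with 0.5 mM MyA for 6 h (M6), 12 h (M12) and 18 h (M18). There was no control group at 18 h, when the MyA time course ended. Libraries are named by group and replicate, as in DS-2. The series describes the replicates as biological, and does not say whether their numbers tie libraries of different groups to one another. The libraries held 20218374 to 33609057 counts each, so that 1 CPM stands for 20.2 to 33.6 reads.

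A dry seed contains messenger RNA that was made while the seed matured and dried on the mother plant. Part of this stored pool serves the first protein synthesis after water uptake, and much of it is degraded while the transcripts of germination are made. Typical stored messages encode late embryogenesis abundant (LEA) proteins, which include the dehydrins and protect cellular structures during drying, together with storage proteins, oil body proteins and aquaporins of the protein storage vacuole. Abscisic acid (ABA) maintains many of them during maturation. In whole seeds, a lower level may reflect fewer cells that hold a transcript or less of it per cell, and these cannot be told apart. CPM is also a share of each library: a transcript that is degraded and one that is diluted by new transcripts both fall.

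Before the levels are described, 18 of the 200 members have to be set apart, since over 50% of their summed dry seed CPM came from 1 of the 5 dry seed libraries. They took 15 of the first 20 ranks, and 15 of them were highest in DS-2. Only 19 of all 6947 ranked contigs had such a profile. The contig ranked first, TC_65390, was at 0.290, 799.7, 1.73, 0.548 and 0.507 CPM in DS-1 to DS-5, and did not exceed 0.991 CPM in any imbibed library. The contig ranked second, TC_58542, was at 0.581, 757.3, 1.88, 0.457 and 0.710 CPM in the same libraries. For both, 1 library supplied nearly the whole dry seed mean, and the other 4 were at 1.88 CPM or less.

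Sets of these single-library members were defined after their values were seen. In 4 of them, TC_65390 and TC_58542 included, DS-2 supplied over 98% of the summed dry seed CPM; that library held 147 to 799.7 CPM, and no other exceeded 1.88 CPM. A further 9 were taken for having at least 3 CPM in both C6-1 and C12-3 and a mean under 1 CPM in every MyA group. Relative to DS-2, their median level was 13.4% in DS-4, 3.15% in DS-5, 7.21% in C6-1 and 4.88% in C12-3, but 0.406% in DS-1 and 0.101% in DS-3. Summed over the 9, DS-2 held 1632 CPM, DS-4 held 261 CPM, DS-5 held 63.2 CPM, C6-1 held 119.6 CPM and C12-3 held 93.5 CPM. Their low level with MyA was a condition of the choice, and they were as low in several control libraries, with a sum of 1.01 CPM in C6-4 and 0.410 CPM in C12-2. For these contigs the mean of each control group rests on C6-1 or C12-3. The other 5 were each highest in 1 library, DS-1, DS-3 or DS-5 once and DS-2 for 2 of them. A level held by 1 dry seed library of 5 goes against the name of stored seed transcripts. The study states that contigs it called without an Arabidopsis or Brassica match may include contamination from other species. Whether these 18 contigs have such a match is not given in the annotation used here. What set these contigs apart was not tested. The levels below are therefore those of the other 182 members, and counts of tests are given with and without the 18.

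**Figure D1:**
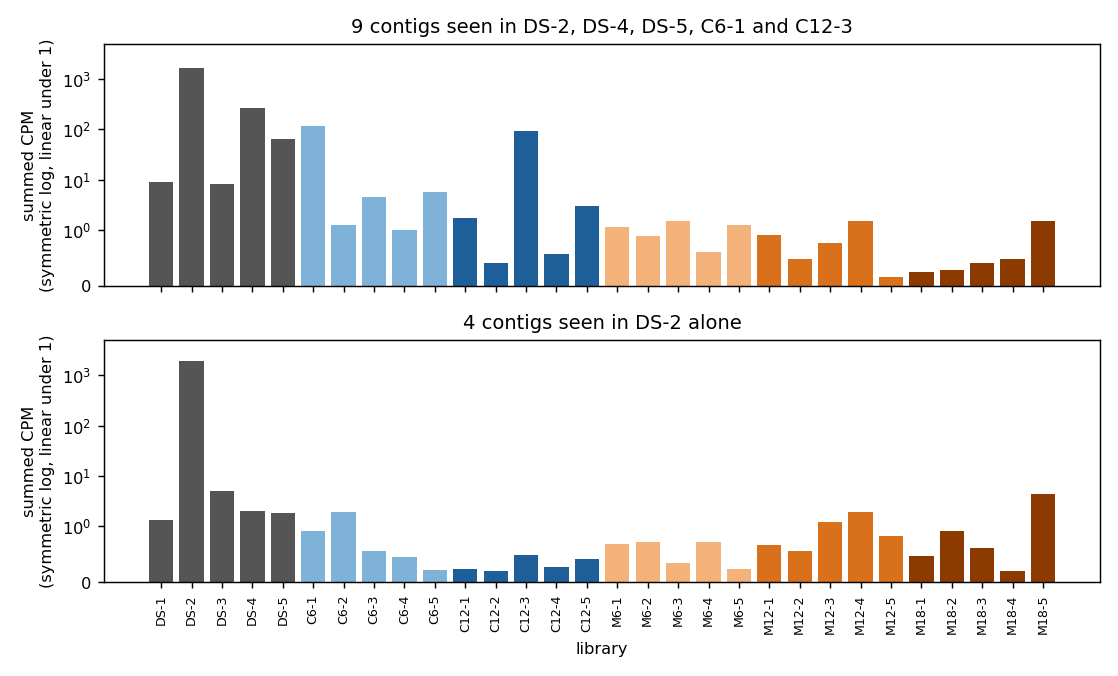
Summed CPM per library (symmetric log axis, linear under 1 CPM) of the 9 single-library members chosen for their level in C6-1 and C12-3 (top) and of the 4 seen in DS-2 alone (bottom); each bar is 1 library, coloured by group. The 9 contigs reached 1632 CPM in DS-2 and were visible in DS-4, DS-5, C6-1 and C12-3, while the 4 contigs stood at 1922 CPM in DS-2 and near 0 elsewhere.

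Together the other 182 members made up 2.99% to 3.76% of the counts of a dry seed library, with a mean of 3.35% ± 0.336 (SD, n = 5). The share was 0.699% ± 0.140 (n = 5) in C6 and 0.360% ± 0.0313 (n = 5) in C12. With MyA it was 0.638% ± 0.0607 (n = 5) in M6, 0.359% ± 0.0638 (n = 5) in M12 and 0.285% ± 0.0649 (n = 4) in M18. M18-5, which the study set aside as an outlier and which is left out of every MyA 18 h value here, was at 0.233%. The dry seed libraries lay far above all imbibed libraries, the 6 h groups overlapped each other, and so did the 12 h groups. Single libraries stood low within their groups: C6-4 was the lowest of C6 in 134 of the 182 members, M12-1 the lowest of M12 in 115, and M18-1 the lowest of M18 in 123. How often these libraries were the lowest among all ranked contigs was not counted, so this may not be particular to the members.

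**Figure D2:**
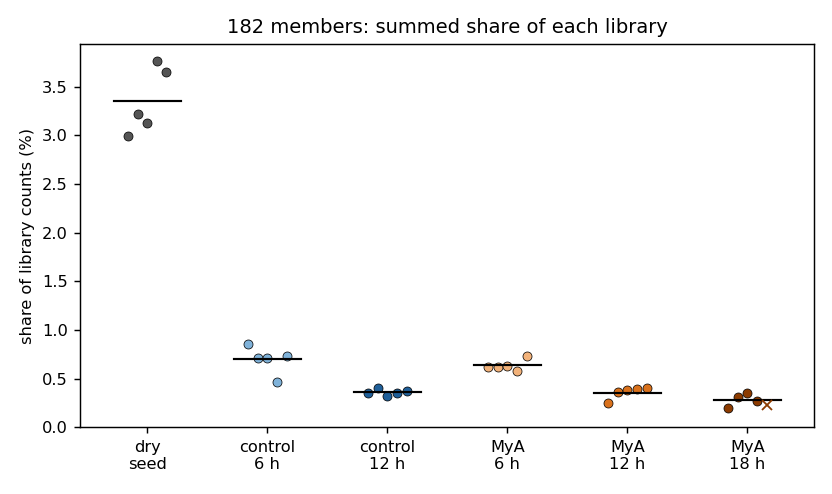
Share of all counts (%) taken by the 182 members in each library, by group; points are libraries, lines are group means, and the cross is M18-5, which is not in the mean. Dry seed libraries held 2.99% to 3.76%, C6 libraries 0.471% to 0.854% and M18 libraries 0.201% to 0.355%.

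Members ranged from 20.1 to 742 CPM in dry seed, with a median of 99.6 CPM. They varied more among the dry seed libraries than other ranked contigs did: the median coefficient of variation was 17.5%, and it was 11.3% in the 6747 ranked contigs that are no members. DS-5 was the highest library for 75 of the 182, and for 2984 of the 6947 ranked contigs. DS-4 was the highest for 49 of the 182, but for only 457 of the ranked contigs. Every dry seed library lay above every C6 and C12 library in 177 of the 182, and in 1274 of the 6947 ranked contigs. All dry seed libraries lay above all 24 imbibed libraries that were used in 172 of the 182, and in 1096 of the ranked contigs. Because the ranking chose contigs for a high dry seed and a low control level, the members' counts describe the choice.

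Control seed still held transcript of every member at 6 h, and less of most members at 12 h. The median member kept 22.0% of its dry seed level in C6 and 10.1% in C12, against 104% and 111% for the ranked contigs that are no members. No member had a mean under 1 CPM in C6, and 6 did in C12. At most 10% of the dry seed level was left for 10 members in C6 and for 91 in C12. In 164 of the 182 the 6 h ratio was the smaller one and set the rank, whereas in 18 the mean was higher in C12 than in C6. The scale matters for the size of these differences. On CPM the median of all 22155 expressed contigs (defined below) was itself 0.52 higher on the log2 scale in C6 than in dry seed, and 0.59 higher in C12. The members' median log2 difference from dry seed was -2.16 in C6 and -3.21 in C12 on CPM. With trimmed mean (TMM) scaling, which moved the median of all contigs to 0.14 and 0.06, the members stood at -2.57 and -3.76.

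**Figure D3:**
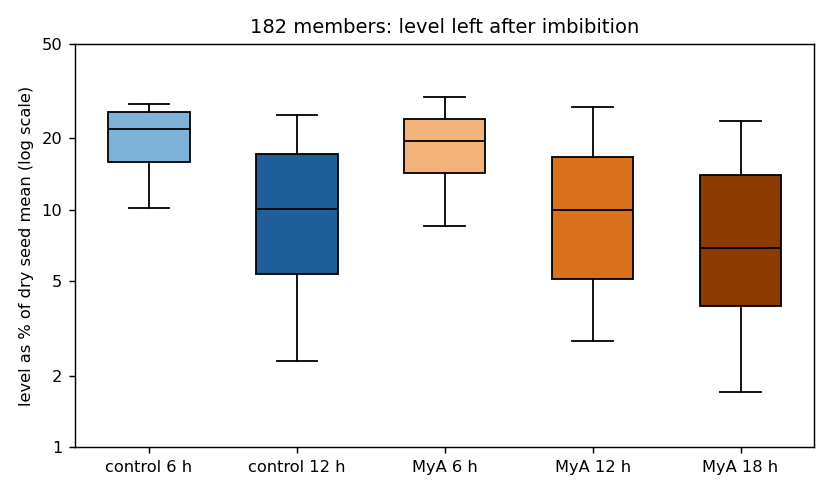
Level of the 182 members in each imbibed group as a percentage of their own dry seed mean (log axis); the line is the median member, boxes span the quartiles and whiskers reach from the 5th to the 95th percentile. Medians were 22.0% in C6, 10.1% in C12, 19.6% in M6, 9.97% in M12 and 6.87% in M18.

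The highest ratio among the 182 was that of TC_62691, ranked 6 and named here after its values were seen. It was at 93.2, 104, 109, 180.0 and 181 CPM in DS-1 to DS-5 and at 5.86, 4.33, 6.58, 1.95 and 3.10 CPM in C6-1 to C6-5. In C12 it lay between 0.611 and 1.53 CPM, which is 0.763% of the dry seed mean. At the other end, the rank limit was not a break in the data. The last members, TC_9678 and TC_44916, had smaller ratios of 3.41 and 3.40, and the first contigs outside, TC_42396 and TC_69654, both had 3.39. TC_9678 averaged 28.2 CPM in dry seed, 5.77 in C6 and 7.92 in C12. TC_44916 averaged 186 CPM in dry seed, 54.4 in C6 and 23.3 in C12. TC_42396, just outside, averaged 79.1, 22.9 and 1.89 CPM in the same groups, and its C12 level was thus a smaller share of dry seed than that of either of the last members. TC_69654 averaged 109.5, 31.9 and 8.62 CPM.

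Gene names could be given to only 2 of the 200 members, the contigs matched to the Arabidopsis genes RAB18 (AT5G66400) and TIP3;1 (AT1G73190). Both come from the part of the study's annotation used here, which lists contigs that the study selected as higher with MyA on these same libraries, so their difference between MyA and control at 12 h is no independent evidence. The other 198 carry a contig identifier only here. That follows from the part of the annotation used, and does not mean that they lack a match in the study's full annotation.

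RAB18 encodes a dehydrin, a hydrophilic LEA protein that in Arabidopsis accumulates in response to ABA and drying. Its contig, TC_70924, was at 309, 300.1, 389, 466 and 592 CPM in DS-1 to DS-5, a mean of 411 ± 121 (SD, n = 5). In C6-1 to C6-5 it was at 97.1, 49.5, 60.6, 20.03 and 32.2 CPM, and in C12-1 to C12-5 at 7.06, 7.41, 5.05, 7.80 and 8.31 CPM. The dry seed, C6 and C12 libraries formed 3 separate ranges, each below the one before, and 1.73% of the dry seed level was left in C12. With MyA the contig was at 43.2, 78.0, 41.5, 40.1 and 91.1 CPM in M6-1 to M6-5, within the range of C6. In M12-1 to M12-5 it was at 6.91, 17.0, 19.5, 10.2 and 29.1 CPM, and 4 of these 5 libraries lay above every C12 library. In M18-1 to M18-4 it was at 1.61, 7.58, 14.9 and 10.8 CPM, which spans the C12 range. Relative to dry seed, the mean was 4.03% in M12 and 2.12% in M18.

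TIP3;1 encodes an aquaporin of the tonoplast that is typical of the protein storage vacuoles of seeds. Its contig, TC_62472, was at 28.05, 26.4, 39.9, 43.4 and 61.8 CPM in DS-1 to DS-5, 16.3, 11.4, 9.19, 3.797 and 5.65 CPM in C6-1 to C6-5 and 1.26, 1.37, 0.953, 2.65 and 2.16 CPM in C12-1 to C12-5. As for RAB18, no library of one of these groups reached the range of another. In M6-1 to M6-5 it was at 7.93, 17.1, 8.04, 7.33 and 17.2 CPM, and in M12-1 to M12-5 at 1.71, 5.98, 4.79, 1.94 and 7.81 CPM. Of the M12 libraries, 3 of 5 lay above all C12 libraries and the other two lay within their range. M18-1 to M18-4 were at 0.752, 2.26, 3.37 and 2.47 CPM. The RAB18 and TIP3;1 contigs were low in the same libraries, C6-4, M12-1 and M18-1, and high in the same libraries, DS-5, M6-2, M6-5 and M12-5.

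**Figure D4:**
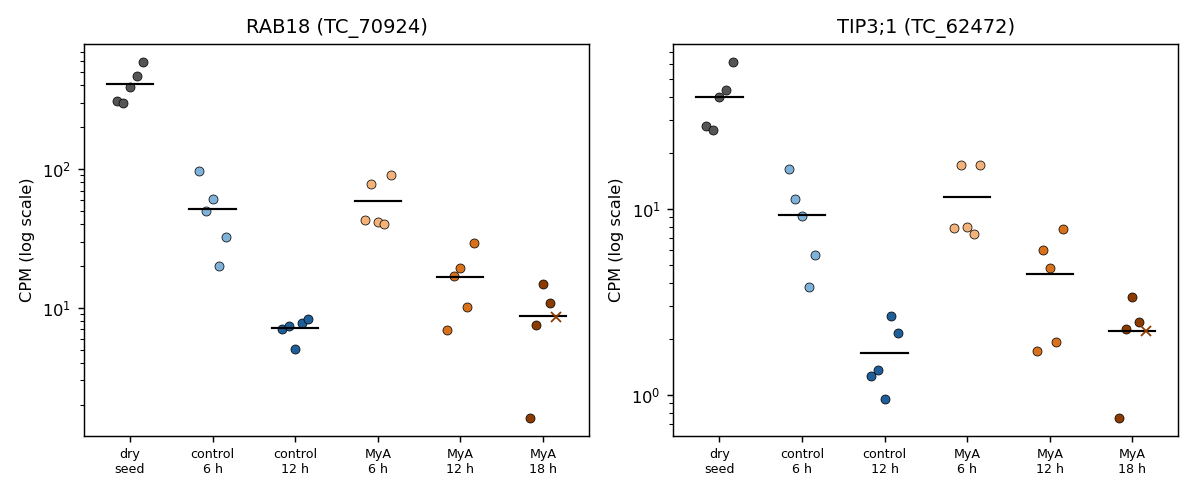
CPM (log axis) of the RAB18 contig (left) and the TIP3;1 contig (right) in every library, by group; points are libraries, lines are group means, and the cross is M18-5. RAB18 was at 300.1 to 592 CPM in dry seed and at 5.05 to 8.31 CPM in C12, with 4 of 5 M12 libraries above that range.

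The time course with MyA offered comparisons of libraries that the ranking did not use. No M6 or M12 library entered it, and M18-1 to M18-4 entered only through the condition on M18-5. These comparisons are still not independent of the choice. The ranking required low C6 and C12 levels, and M6 and M12 lay close to these. Ranked on M6 and M12 instead, 176 of the 200 members recurred. A contig back near its dry seed level by 12 h could hardly be a member, which limits how many could rise. Tests used the edgeR quasi-likelihood test over 22155 contigs, those with 5 CPM or more in 4 libraries at the minimum, M18-5 not counted, and calls required a Benjamini-Hochberg adjusted p below 0.05 and more than a 2-fold difference. Of the 200 members, 194 passed this filter: all of the 182, and 12 of the 18 single-library members.

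From 6 h to 12 h with MyA, 86 of the 194 tested members fell (85 of the 182) and none rose. Over all tested contigs, 14.7% were called lower at 12 h and 19.1% higher. The study states that, of the contigs it called, those without an Arabidopsis or Brassica match may include contamination from other species. The tested contigs were not limited to matched ones, and their origin was not tested. Of them, 872 lay between log2 differences of 1.5 and 1.75 and 1364 between 1.75 and 2, against 492 between 1.25 and 1.5. Rises were rarer among the ranked contigs from which the members came. By CPM means alone, 958 of those 6947 were over 2-fold lower at 12 h and 349 over 2-fold higher. By the same measure 81 of the 200 members were lower and 0 higher. The members' median log2 difference was -0.93, with quartiles of -1.43 and -0.33, while the median of all tested contigs was 0.05. The direction was downward in 175 of the 194 members, and in 10652 of the 22155 tested contigs. All 5 M12 libraries lay below all 5 M6 libraries in 93 members, a pattern that 26% of all tested contigs showed. For the count of 0 higher, 5 members had an unadjusted p below 0.05, 4 passed the adjusted p without the fold threshold (39.1% and 37.9% of all tested contigs), and DESeq2 called 0 as well. Those 4 were TC_47082, TC_66818, TC_9555 and TC_9678, with log2 differences of 0.66, 0.41, 0.29 and 0.48. By the adjusted p alone 120 of the 194 were lower, against 33.1% of all tested contigs, and at an unadjusted p below 0.05 125 were, against 34.3%. DESeq2 called 89 members lower, among them all 86, and 77 of the 86 kept their call when any 1 of the libraries was left out. No share of all tested contigs was counted for DESeq2 or with a library left out.

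Both named genes were among the members that fell from M6 to M12. The RAB18 contig TC_70924 was lower by a log2 difference of -1.84 ± 0.38 (SE, edgeR adjusted p = 0.00116), with all 5 M12 libraries below all M6 libraries. The TIP3;1 contig TC_62472 changed by -1.39 ± 0.43 (SE, edgeR adjusted p = 0.0128), with 4 of 5 M12 libraries below all M6 libraries. The steepest falls belonged to contigs that have no gene name here. TC_39276 was at 4.66, 5.82, 7.70, 6.44 and 6.72 CPM in M6-1 to M6-5 and at 0.367, 0.486, 0.548, 0.968 and 0.926 CPM in M12-1 to M12-5, a log2 difference of -3.25 ± 0.30 (SE, edgeR adjusted p = 4.94e-06). TC_10252 was at 3.38, 5.45, 2.96, 5.59 and 7.53 CPM in M6 and at 0.520, 1.23, 0.512, 0.308 and 0.586 CPM in M12, a difference of -2.99 ± 0.38 (SE, edgeR adjusted p = 3.94e-05). Neither group overlapped the other for these contigs, and both had started from moderate dry seed means of 41.2 and 64.4 CPM.

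The most abundant members fell as well. TC_70786, the highest member in dry seed, was at 731, 817, 644, 799 and 718 CPM in DS-1 to DS-5, 172, 180.1, 166, 195 and 167 CPM in M6-1 to M6-5 and 35.7, 74.5, 91.7, 73.6 and 76.0 CPM in M12-1 to M12-5. The M12 and M6 libraries did not overlap, and the log2 difference was -1.32 ± 0.21 (SE, edgeR adjusted p = 0.000232). TC_40882, the next highest, was at 655, 666, 575, 721 and 955 CPM in DS-1 to DS-5, 93.6, 112, 161, 97.0 and 199.7 CPM in M6-1 to M6-5 and 23.5, 51.9, 47.8, 36.7 and 48.8 CPM in M12-1 to M12-5. Its difference was -1.68 ± 0.27 (SE, edgeR adjusted p = 0.000233), again with no overlap. The contig TC_68370, named after its values were seen, was as abundant in dry seed, with a mean of 682 ± 77.8 CPM, but held a level between 148 and 213 CPM in M12 that did not differ detectably from 163 to 316 CPM in M6 (log2 difference -0.11 ± 0.20 SE, edgeR adjusted p = 0.623). Its means were 153 CPM in C6, 190 in C12 and 204 in M18, so that the 6 h level was also the later one.

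**Figure D5:**
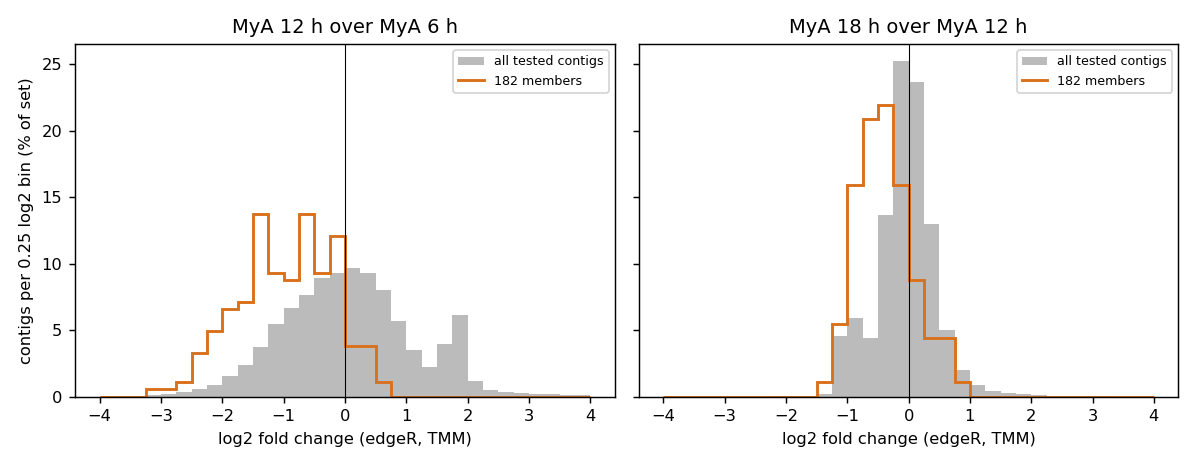
Distribution of edgeR log2 fold changes (TMM) for the 182 members (orange line) and all 22155 tested contigs (grey), as a percentage of each set per bin, for M12 over M6 (left) and M18 over M12 (right). The members' medians were -0.94 and -0.43, and those of all tested contigs 0.05 and -0.04.

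From 12 h to 18 h with MyA no member passed the adjusted p and the fold threshold in either direction by edgeR, where 0.357% of all tested contigs were lower and 1.97% higher. DESeq2 called 4 members lower and 0 higher, and other edgeR fits called 9 lower (a single fit over the 6 groups) and 4 lower (with a replicate block). No share of all tested contigs was counted for these fits, so their counts cannot be set against one. At an unadjusted p below 0.05, 38 of the 194 members were lower and 4 higher, against 11.7% and 15.9% of all tested contigs. Here too the tested contigs may include some of other species. Of all tested contigs, 1005 lay between log2 differences of -1.25 and -1 and 1314 between -1 and -0.75, against 981 between -0.75 and -0.5. The members' median log2 difference was -0.44, against -0.04 for all tested contigs. It was negative in 156 of the 194 members, and in 12019 of the 22155 tested contigs. All 4 M18 libraries lay below all 5 M12 libraries in 9 members (6.06% of all tested contigs) and above them in 3 (10% of all tested contigs). The count of lower members depended on single libraries of this small comparison: it was 3 without M12-1, the low library of its group, and 1 without M12-5 or without M18-3. The count of higher members was 1 without M12-4 or without M18-3.

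At 18 h the libraries of both named genes and of the most abundant members lay within the M12 range or below it. The RAB18 contig TC_70924 differed from M12 by -0.91 ± 0.56 on the log2 scale (SE, edgeR adjusted p = 0.281) and the TIP3;1 contig TC_62472 by -0.98 ± 0.51 (SE, edgeR adjusted p = 0.223). TC_40882 was at 7.66, 24.4, 25.8 and 18.0 CPM in M18-1 to M18-4, a difference of -1.12 ± 0.34 (SE, edgeR adjusted p = 0.0672). TC_70786 was at 9.88, 52.3, 63.0 and 23.3 CPM, a wide spread within the group, with a difference of -0.91 ± 0.48 (SE, edgeR adjusted p = 0.226). By the adjusted p alone, 4 members were lower (TC_38441, TC_46375, TC_70252 and TC_71084) and 2 higher, against 3% and 8.07% of all tested contigs. The higher ones were TC_40569, by 0.90 ± 0.18 (SE, edgeR adjusted p = 0.0138), and TC_66818, by 0.75 ± 0.10 (SE, edgeR adjusted p = 0.00256). TC_40569 was at 20.2, 18.6, 22.6, 22.1 and 17.2 CPM in M12-1 to M12-5 and at 42.4, 36.9, 26.3 and 41.3 CPM in M18-1 to M18-4, without overlap, and so stood at 52.4% of its dry seed level.

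MyA and control at the same time share the control libraries that ranked the members, which leans any member towards a low control level, so these differences are values without a test. At 6 h the median log2 ratio of M6 over C6 in the 182 was -0.09, with quartiles of -0.25 and 0.08. The M6 mean was higher in 65 of them, and in 2994 of the 6947 ranked contigs. All M6 libraries lay above all C6 libraries in 0 members and below them in 1, where 0.546% and 0.357% of all tested contigs did so. At 12 h the median ratio of M12 over C12 was -0.03 on CPM and 0.03 with TMM scaling, and thus had no sign that held on both scales. The medians of all tested contigs were -0.08 and -0.03, so the members stood slightly above them on both scales. The M12 mean was higher in 86 of the 182, and in 1824 of the 6947 ranked contigs. All M12 libraries lay above all C12 libraries in 0 members and below them in 2, where 0.492% and 1.24% of all tested contigs did so. Across the members, then, the level with MyA lay close to that of the control at both times, and the median left of the dry seed level was 19.6% in M6 and 9.97% in M12.

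Single members stood apart from that median. The M12 mean was over 2-fold higher than the C12 mean in 4 of the 182, where it was so in 0.273% of the 6947 ranked contigs. They were the RAB18 contig TC_70924 with a log2 ratio of 1.16, the TIP3;1 contig TC_62472 with 1.18, TC_46492 with 1.29 and TC_36962 with 1.12. TC_46492 was at 1.46, 4.13, 1.98, 0.730 and 1.70 CPM in C12-1 to C12-5 and at 3.06, 1.46, 16.4, 2.46 and 4.78 CPM in M12-1 to M12-5. Its higher mean came from M12-3, and only 2 of the 5 M12 libraries lay above all C12 libraries. At the other end TC_64992 had the lowest ratio at both times, -1.65 at 6 h and -1.23 at 12 h. It was at 25.3, 29.8, 198, 31.0 and 202 CPM in C6-1 to C6-5 and at 16.2, 19.2, 41.5, 23.4 and 53.0 CPM in M6-1 to M6-5. The control mean at 6 h was set by C6-3 and C6-5, and the ranges overlapped. M6-3 and M6-5 were likewise the highest of M6, and whether same-numbered libraries belong together is not stated.

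The study takes the 12 h control and the 18 h MyA seed as the same stage, the onset of endosperm rupture. The members' median log2 ratio of M18 over C12 was -0.33 on CPM and -0.24 with TMM scaling, with -0.09 and near 0 for all tested contigs. The M18 mean was lower in 147 of the 182, and in 4593 of the 6947 ranked contigs. All M18 libraries lay below all C12 libraries in 29 members and above them in 5, where 15.4% and 9.66% of all tested contigs did so. Members below without overlap were thus about as frequent as among all tested contigs, and those above were rarer. TC_70786 was an example of the lower ones, with 64.0 to 96.6 CPM in C12 and 9.88 to 63.0 CPM in M18. An example of the higher ones, named after its values were seen, was TC_39507, with 11.5, 9.09, 12.0, 20.1 and 17.1 CPM in C12-1 to C12-5 and 49.9, 36.8, 38.1 and 34.3 CPM in M18-1 to M18-4. In M12 the same contig had ranged from 10.2 to 72.4 CPM.

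For the wider seed maturation programme, 84 Arabidopsis loci were listed: LEA proteins, storage and oil body proteins, ABA and maturation regulators, and small heat shock proteins. Only 9 contigs were paired with a listed locus in the annotation used here, and 7 of them were tested. From M6 to M12, 2 of the 7 fell, the RAB18 and TIP3;1 contigs, and 3 rose, against 14.7% and 19.1% of all tested contigs. From M12 to M18, 0 fell and 4 rose, against 0.357% and 1.97%. Since the annotated contigs include those the study selected on these libraries as higher with MyA, their rises are a description and no independent evidence. The risers at both steps were ABF3, a transcription factor of ABA responses, a LEA-like gene (AT5G60530) and a small heat shock protein (AT2G27140). ABF3 was at 0.639 CPM in dry seed, 5.00 in M12 and 19.8 in M18. None of the risers reached 20 CPM in dry seed. A further LEA contig, LEA18 (TC_11354), would have ranked among the members with a smaller ratio of 6.22. Its means were 102 CPM in dry seed, 16.1 in C6 and 6.28 in C12, but it was at 296.3 CPM in M18-5, which is 32.0 times the mean level, with 0.5 CPM added to both, of the other M18 libraries, and the condition on that library left it out.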

How the data were processed

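Whole Lepidium sativum seeds were profiled in 30 poly(A) libraries. The deposited table holds whole-number read counts of 48306 contigs, not normalized. That is more than the number of transcript assemblies the study reports. The authors assembled reads with ABySS, CD-HIT-EST and MIRA, mapped them with BWA and made the counts with HTSeq; the BWA and HTSeq versions are not given in the sources used here. All count columns were matched to a library by its label (0 unmatched). CPM used column totals.

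Members, gene lists and tests were chosen with earlier results of these data known. Tests used R 4.3.3 and edgeR 4.0.16 (TMM, glmQLFit, glmQLFTest), fitted on the libraries of the 2 groups compared, with Benjamini-Hochberg adjustment over all 22155 contigs. DESeq2 1.42.0, other scaling, other filters, a replicate block, a fit over all groups, other ranking settings and leaving out each library were alternatives. Counts without the single-library members and ranking without either exclusion were added after seeing the data. The test script was checked on simulated counts. Named contigs are members or listed loci with an Arabidopsis match, the extremes of rank, dry seed level and called change, and the contigs at the rank limit; others were named after their values were seen. M18-5 was left out, as in the study. The labels do not say how seed batches were shared among replicates. No contig sequences were used here.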

Additional observations from a re-analysis of the deposited data

Results flagged for a closer look

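In groups of 4 or 5 libraries, the highest or lowest library was compared with its neighbour relative to the range of its group (Dixon's test), for 14 contigs or sums and 84 groups in all. Chance singles out about 1 in 20 groups. Here 8 were singled out, but 6 of them concern single-library members, which were chosen for a level held by 1 library, so that the chance rate is no comparison for them: DS-2 stood apart for TC_65390 (799.7 CPM), for TC_58542 (757.3 CPM), for the sum of the 4 contigs seen in DS-2 alone (1922 CPM) and for the sum of the 9 contigs chosen for their level in C6-1 and C12-3 (1632 CPM), and for that sum C6-1 (119.6 CPM) and C12-3 (93.5 CPM) stood apart in their groups as well. The other two were C12-2 for TC_70786, at 96.6 CPM against 64.0 to 72.1 CPM in the other C12 libraries, and DS-3 for TC_9678, at 37.3 CPM against 23.7 to 27.1 CPM in the other dry seed libraries. In data that no comparison used, the LEA18 contig TC_11354 stood at 296.3 CPM in M18-5, while the control libraries at 12 h averaged 6.28 CPM.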

How the results depend on the processing

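The count of members lower in M12 than in M6, 86, lay between 85 and 120 under the other settings and between 80 and 94 when 1 library was left out; it was 91 with a replicate block. The count of members higher was 0 in all of these but 4 without the fold threshold. From M12 to M18 the count lower was 0, and it became 4 with DESeq2, 9 in a single fit over the 6 groups, 4 with a replicate block, 4 without the fold threshold and 0 to 3 when 1 library was left out; the count higher was 2 without the fold threshold and 0 to 1 when 1 library was left out. The cause was not tested, apart from the dropped fold threshold, which admits smaller differences. For the other fits and the left-out libraries, no share of all tested contigs was counted. Whether replicate numbers pair the libraries is not stated. For M12 and M6 the correlations of same-numbered libraries ranged from -0.20 to 0.62, and 2 of 5 libraries correlated best with their own number. The RAB18, TIP3;1, TC_39276 and TC_10252 contigs kept their direction and their call from M6 to M12. From M12 to M18 the RAB18 and TIP3;1 contigs were not called under any alternative run, but their log2 differences lay on both sides of the 2-fold limit, from -1.27 to -0.57 and from -1.23 to -0.70 when 1 library was left out. The ranking was less stable at its edge. Of the 200 members, 171 recurred with group medians in place of means (4 of the 18 single-library members and 167 of the others), 175 with TMM scaling, 176 when ranked on M6 and M12, 193 and 194 with other pseudocounts, and 183 to 200 when 1 library was left out; without DS-2, 5 of the 18 and 180 of the others recurred. Without the condition on M18-5 188 recurred, and with the 100 highest contigs kept 171 did. Depth limits the low end: at 1 CPM a library holds 20.2 to 33.6 reads.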
